A study of Mus musculus with 22 samples.

Results

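The genes described here are 7 genes commonly used to recognise mouse macrophages: Adgre1, Cd68, Mertk, Fcgr1, Lyz2, Cd14 and Sirpa. They were chosen by symbol, and all 7 were found among the 41388 genes counted in each of 22 RNAseq libraries. The libraries were made from tumor stromal cells sorted by the reporter TdTomato and the pan-leukocyte protein CD45 into 4 populations: double negative (TdTOSX-;CD45-), TdTOSX single positive (TdTOSX+;CD45-), CD45 single positive (TdTOSX-;CD45+) and double positive (TdTOSX+;CD45+). All mice were C57BL/6 at postnatal day 56 and carried Osx-cre and the Ai9 TdTomato reporter, the controls included, and tumors had been inoculated in 4 mice labelled wild type and 6 labelled Cdh2-cKO;Ai9. In each genotype, TdTOSX single positive cells gave 2 libraries, and the remaining populations gave 3 apiece. The Cre is driven by the Sp7 (Osterix) promoter in a doxycycline-repressible form, so TdTOSX marks cells in which the promoter has been active, or their descendants, since the drug was withdrawn. The study describes its mice from this stage on as fed doxycycline until weaning, while the labels do not mention the diet of the mice sequenced. The labels name an orthotopic MMTV-BO1 tumor, while the design text and the methods describe subcutaneous tumors, in the methods of the PyMT-BO1 line. Only cell preparations that passed an RNA integrity test were sequenced, and which populations came from the same mouse is not given in the sources used here.

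Macrophages are phagocytes that arise from monocytes or from embryonic precursors and take up dying cells, antibody-coated particles and microbes. Adgre1 encodes F4/80, a surface receptor of the adhesion class, and Cd68 a glycoprotein of the lysosome. Mertk is a receptor tyrosine kinase of the TAM family that, through the bridging proteins Gas6 and Pros1, binds phosphatidylserine on apoptotic cells, and Fcgr1 is the high-affinity receptor for IgG. Lyz2 encodes the lysozyme of myeloid cells, Cd14 is a co-receptor that hands lipopolysaccharide to Tlr4 and Ly96, and Sirpa is an inhibitory receptor for the "do not eat me" protein Cd47. None of these genes is restricted to macrophages: Lyz2, Cd14 and Sirpa are also used by monocytes, granulocytes or dendritic cells, Sirpa by neurons and some stromal cells, and Mertk by several epithelia.

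Promoter sequences are shown because the genes moved together between the sorted populations, as did Spi1, Cebpa and Cebpb, the genes of the myeloid transcription factors PU.1 and C/EBP. An entry in the RefSeq promoter table (GRCm38.p6) was found for 4 of the 7 genes. Adgre1, Cd14 and Sirpa had none. The 250 bases before the start are printed 5′ to 3′ on the strand of the gene, followed by those of Lyz1, the close paralog of Lyz2, and capitals mark matches to GAGGAA (a PU.1 core) or TTGCNNAA (a C/EBP core) on either strand.
Cd68: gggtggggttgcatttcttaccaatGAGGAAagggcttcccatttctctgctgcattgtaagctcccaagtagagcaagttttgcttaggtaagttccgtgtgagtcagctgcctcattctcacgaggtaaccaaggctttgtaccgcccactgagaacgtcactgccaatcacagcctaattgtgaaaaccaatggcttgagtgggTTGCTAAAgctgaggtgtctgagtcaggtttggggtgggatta
Mertk: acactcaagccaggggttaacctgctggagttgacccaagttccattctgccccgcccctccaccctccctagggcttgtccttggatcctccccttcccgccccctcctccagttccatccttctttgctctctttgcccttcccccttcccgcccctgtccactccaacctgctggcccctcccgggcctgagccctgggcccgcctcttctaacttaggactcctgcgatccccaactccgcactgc
Fcgr1: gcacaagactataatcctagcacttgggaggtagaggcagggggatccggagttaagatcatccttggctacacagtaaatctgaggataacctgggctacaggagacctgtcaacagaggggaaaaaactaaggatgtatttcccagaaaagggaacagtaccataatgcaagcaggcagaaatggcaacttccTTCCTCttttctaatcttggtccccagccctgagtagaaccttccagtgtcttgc
Lyz2: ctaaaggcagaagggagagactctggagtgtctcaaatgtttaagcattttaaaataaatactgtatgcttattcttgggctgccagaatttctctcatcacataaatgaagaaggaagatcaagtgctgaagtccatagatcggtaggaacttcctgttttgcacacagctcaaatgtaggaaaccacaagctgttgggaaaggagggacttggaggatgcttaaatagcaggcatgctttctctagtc
Lyz1: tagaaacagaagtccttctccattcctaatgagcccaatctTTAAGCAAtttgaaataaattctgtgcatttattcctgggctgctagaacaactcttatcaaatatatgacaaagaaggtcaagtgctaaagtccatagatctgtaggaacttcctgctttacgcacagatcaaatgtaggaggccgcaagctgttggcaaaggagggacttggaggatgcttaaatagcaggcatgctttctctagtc
These windows lie at chr11:69666171-69666420 on the minus strand (Cd68), chr2:128698665-128698914 on the plus strand (Mertk), chr3:96293970-96294219 on the minus strand (Fcgr1), chr10:117282273-117282522 on the minus strand (Lyz2) and chr10:117292869-117293118 on the minus strand (Lyz1). GAGGAA was found in Cd68, from base 225 to base 220 before the start, and in Fcgr1, from base 55 to base 50 on the other strand. It occurs in 23.3% of all 32851 promoters of the table over the same length. TTGCNNAA was found in Cd68, from base 43 to base 36, and in Lyz1, from base 209 to base 202 on the other strand, and occurs in 9.56% of the promoters. The letters of neither motif are in the windows of Mertk and Lyz2. A match is a description of letters and not a measured binding site. Lyz2 and Lyz1 carried the same base at 92 of the 100 positions nearest the start and at 60.8% of the 250 positions, compared without gaps.

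Reads counted on genes came to between 16594228 and 26784003 per library, with a median of 18977040. Levels are given as normalized CPM, the counts of a gene relative to the size of its library after TMM scaling, and 3 counts, taken as the smallest signal, were worth between 0.103 and 0.201 normalized CPM. All 7 genes were among the 15018 genes tested. Cdh2, the gene targeted in the conditional knockout, was between 4.52 and 9.13 normalized CPM in the CD45- libraries of wild type mice and between 12.5 and 18.4 in those of mice labelled Cdh2-cKO, so its level ran against the label, and the libraries are called "labelled Cdh2-cKO" throughout. The reads count the whole gene, and which exons the deletion removes is not given in the sources used here. Sp7 itself had 2 counts in the wild type double negative libraries, 1 in the CD45 single positive libraries labelled Cdh2-cKO and 0 in the others. As a check of the sort, Ptprc, which encodes CD45, lay between 472 and 1821 normalized CPM in the 12 CD45+ libraries and between 2.45 and 337 in the 10 CD45- libraries, and the summed level of 7 fibroblast genes between 62.2 and 216 in CD45+ and between 4276 and 59707 in CD45- libraries. A pair of libraries stood apart from their populations. In wild type CD45 single positive replicate 2, the summed B cell genes reached 3474 normalized CPM (8.56 to 21.7 in the other 11 CD45+ libraries) and the T cell genes 2606 (30.5 to 563). In wild type double negative replicate 3, 7 pan-leukocyte genes (Ptprc, Cd53, Coro1a, Laptm5, Cd52, Lcp1 and Rac2) summed to 7102, against 196 to 4861 in the other 9 CD45- libraries.

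The first comparison asks how far the macrophage genes follow the CD45 sort. All 7 genes rose in CD45+ over CD45- populations, by log2 fold changes between 2.35 and 3.87 with a median of 3.25, where the median of all genes tested was 0.06 (edgeR's quasi-likelihood test, adjusted p at most 0.05 after Benjamini-Hochberg adjustment). Calls were common in this comparison, since 32.6% of all genes tested were called higher in CD45+ cells and 8.62% with a log2 fold change of at least 2, a threshold that all 7 passed. Cd14 rose the most and Mertk the least. In bulk libraries, fewer cells of a type and less RNA per cell cannot be told apart.

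**Figure D1:**
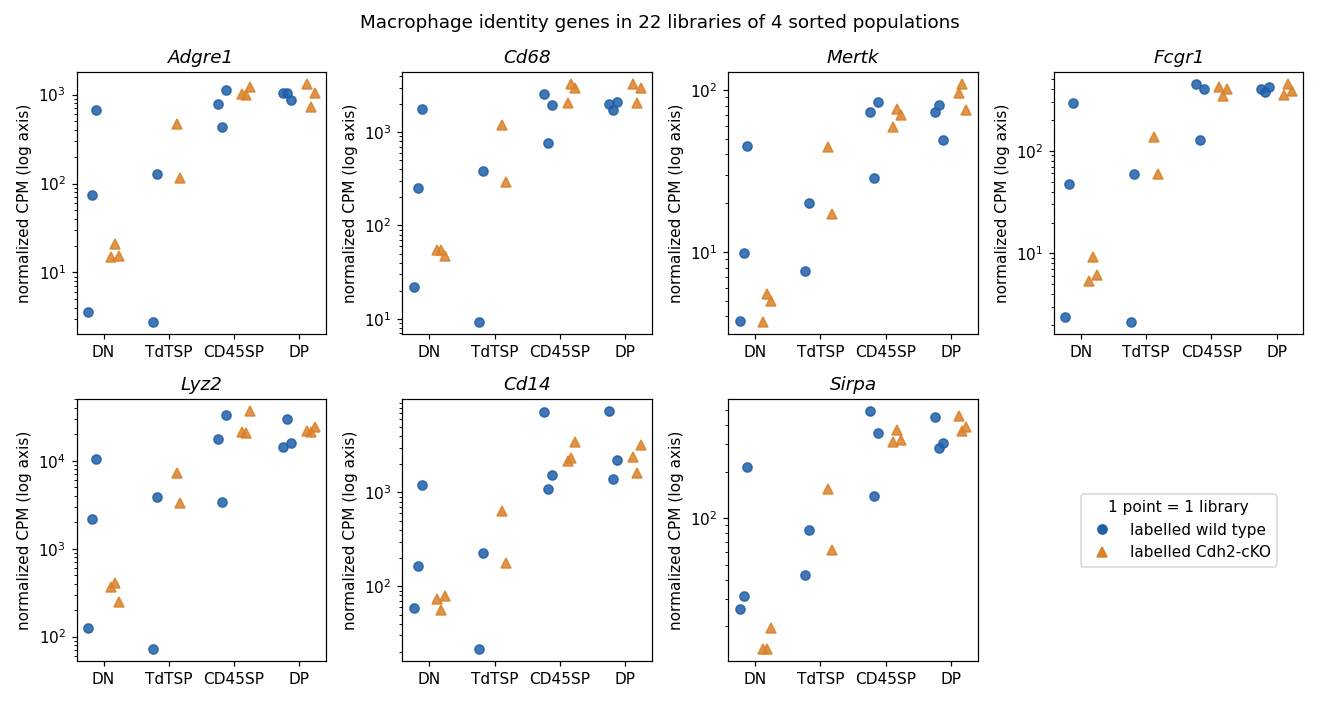
Normalized CPM (log axis) of the 7 genes in each of 22 libraries, by sorted population (DN, double negative; TdTSP, TdTOSX single positive; CD45SP, CD45 single positive; DP, double positive), with a point for each library and circles for wild type and triangles for libraries labelled Cdh2-cKO. The CD45- libraries spread more widely than the CD45+ libraries, for Adgre1 from 2.76 to 670.3 against 427 to 1322, and among CD45+ libraries 1 wild type CD45SP library is the lowest in each panel and 2 wild type libraries (7188 and 7376) stand high for Cd14.

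Adgre1 (ENSMUSG00000004730, chromosome 17, 57358686 to 57483529, plus strand, GRCm38) showed the widest spread among CD45- libraries. Its levels were 3.59, 74.9 and 670.3 normalized CPM in double negative and 2.76 and 127 in TdTOSX single positive libraries of wild type mice, and 14.9, 20.7 and 15.3 and then 467 and 115 in those labelled Cdh2-cKO. In CD45 single positive libraries they were 776, 427 and 1130.3 in wild type and 1009, 999 and 1229.6 in those labelled Cdh2-cKO, and in double positive libraries 1049.5, 1049 and 859 and then 1322, 717 and 1048. Every CD45+ library thus lay above 8 of the 10 CD45- libraries, and the overlap came from wild type CD45 single positive replicate 2 on the one side and from wild type double negative replicate 3 and a TdTOSX single positive library labelled Cdh2-cKO on the other. The log2 fold change between CD45+ and CD45- was 3.34 (SE 0.683, adjusted p = 0.000377).

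Cd68 (ENSMUSG00000018774, chromosome 11, 69664213 to 69666153, minus strand) followed the same order. Double negative libraries held 22.1, 251 and 1753 normalized CPM in wild type and 54.7, 54.3 and 47.1 in those labelled Cdh2-cKO, and TdTOSX single positive libraries 9.19 and 385 and then 1196 and 290.0. The 6 CD45 single positive libraries had 2549, 764 and 1941 (wild type) and 2034, 3250.0 and 2992 (labelled Cdh2-cKO), and the 6 double positive libraries 2026, 1745 and 2090.2 and then 3300.1, 2037 and 2961. The CD45- values of 1753 and 1196 were inside the CD45+ range, which began at 764. The log2 fold change was 3.08 (SE 0.633, adjusted p = 0.000401).

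Mertk (ENSMUSG00000014361, chromosome 2, 128698956 to 128802894, plus strand) was the least abundant of the 7 and the one with the smallest difference. Its double negative values were 3.72, 9.88 and 45.0 normalized CPM in wild type and 3.68, 5.53 and 4.96 in libraries labelled Cdh2-cKO, and its TdTOSX single positive values 7.60 and 20.1 and then 44.4 and 17.2. Among CD45+ libraries it measured 73.5, 28.5 and 84.1 in wild type CD45 single positive, 58.9, 76.1 and 70.0 in those labelled Cdh2-cKO, 73.3, 80.7 and 49.2 in wild type double positive and 95.9, 109 and 75.0 in double positive libraries labelled Cdh2-cKO. The CD45- values spread 12.2-fold for Mertk and 15.1-fold for Sirpa, against between 56.1-fold and 243-fold for the other 5 genes. Mertk rose by a log2 fold change of 2.35 (SE 0.362, adjusted p = 2.58e-05).

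Fcgr1 (ENSMUSG00000015947, chromosome 3, 96282909 to 96293969, minus strand) was the steadiest gene among CD45+ cells. Leaving out wild type CD45 single positive replicate 2, at 128 normalized CPM, its other 11 CD45+ values ran from 337 to 447, a 1.33-fold range. They were 447 and 397 in wild type CD45 single positive, 415, 337 and 397 in those labelled Cdh2-cKO, 396, 376 and 416 in wild type double positive and 352, 447 and 382 in double positive libraries labelled Cdh2-cKO. Its CD45- values were 2.44, 47.9 and 291 (wild type double negative), 5.36, 9.16 and 6.17 (double negative labelled Cdh2-cKO), 2.14 and 59.0 (wild type TdTOSX single positive) and 136 and 58.9 (TdTOSX single positive labelled Cdh2-cKO). The difference was a log2 fold change of 3.25 (SE 0.616, adjusted p = 0.000189).

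Lyz2 (ENSMUSG00000069516, chromosome 10, 117277334 to 117282274, minus strand) was by far the most abundant. It reached 17612, 3377 and 33072 normalized CPM in wild type CD45 single positive, 21372, 20912 and 36885 in those labelled Cdh2-cKO, 14374, 29949 and 15768 in wild type double positive and 21958, 21449.7 and 24375 in double positive libraries labelled Cdh2-cKO. The double negative values were 126, 2186 and 10587 in wild type and 364, 413 and 250.5 in those labelled Cdh2-cKO, and the TdTOSX single positive values 71.4 and 3859.8 and then 7219 and 3276. Even the lowest CD45- library, at 71.4 normalized CPM, was thus far above the 3-count level. The log2 fold change was 3.45 (SE 0.685, adjusted p = 0.000295). Of the 50-base windows of Lyz2 transcripts, the length of the reads, 15.4% also occur in Lyz1 (GENCODE vM21), and the other 6 genes share none with another gene.

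Cd14 (ENSMUSG00000051439) varied the most of the 7 genes among CD45+ libraries other than wild type CD45 single positive replicate 2. Replicate 1 of both wild type CD45+ populations, at 7188 normalized CPM in CD45 single positive and 7376 in double positive cells, stood above all 10 other CD45+ libraries, which lay at 1093 and 1526 (wild type CD45 single positive), 2161, 2313 and 3427 (CD45 single positive labelled Cdh2-cKO), 1392 and 2196 (wild type double positive) and 2413, 1615 and 3201 (double positive labelled Cdh2-cKO). Among the 6 other genes, the largest range over the 11 CD45+ libraries without wild type CD45 single positive replicate 2 was 2.57-fold, and that of Cd14 was 5.30-fold. Whether both replicates 1 came from the same mouse is not given in the sources used here. In CD45- libraries Cd14 had 58.3, 166 and 1191 (wild type double negative), 72.8, 55.8 and 79.7 (double negative labelled Cdh2-cKO), 21.2 and 228 (wild type TdTOSX single positive) and 639 and 176 (TdTOSX single positive labelled Cdh2-cKO). The difference between CD45+ and CD45- was a log2 fold change of 3.87 (SE 0.616, adjusted p = 3.54e-05).

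Sirpa (ENSMUSG00000037902, chromosome 2, 129592835 to 129632228, plus strand) had the smallest standard error of the 7 genes in this comparison. Its CD45+ values were 493, 139 and 353 normalized CPM in wild type CD45 single positive, 309, 372 and 321 in those labelled Cdh2-cKO, 448, 282 and 308 in wild type double positive and 459, 365 and 391 in double positive libraries labelled Cdh2-cKO. Its CD45- values were 25.7, 31.5 and 213 (wild type double negative), 14.1, 14.3 and 19.4 (double negative labelled Cdh2-cKO), 42.8 and 84.0 (wild type TdTOSX single positive) and 154 and 61.7 (TdTOSX single positive labelled Cdh2-cKO). The log2 fold change was 2.65 (SE 0.359, adjusted p = 6.52e-06).

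No gene of the 7 separated all 12 CD45+ from all 10 CD45- libraries, whereas 3.71% of the genes tested did. Without wild type CD45 single positive replicate 2 and double negative replicate 3, which were picked out with their values known, each of the 7 genes separated the remaining libraries, as did 12% of the genes tested. All 7 genes were called with and without these 2 libraries. With them 32.6% of all genes tested were called higher, and the share without them is not given here. Within wild type mice all 7 were called at log2 fold changes of 1.98 (Mertk) to 3.83 (Cd14), with adjusted p between 0.00166 and 0.0306, where 25.3% of all genes tested were called higher. Of these, Mertk, Cd14 and Sirpa were called in a fit of the 11 wild type libraries alone (adjusted p = 0.0329, 0.0223 and 0.0228) and without wild type TdTOSX single positive replicate 1, and the other 4 genes were not (adjusted p = 0.0848 to 0.114 in the wild type libraries alone, and 0.0616 to 0.094 without that replicate). Genes called in either direction were 38.4% and 42.1% of those tested in these fits. In libraries labelled Cdh2-cKO all 7 were called, from 2.73 (Mertk) to 4.19 (Lyz2), where 23.6% of genes were called higher. The difference of the CD45 effect between the genotypes passed the test for 0 of the 7 genes in edgeR, at log2 differences of 0.07 to 1.48 (cKO minus wild type) and unadjusted p of 0.146 to 0.947. None of the 15018 genes was called for it in edgeR, while 1157 had an unadjusted p under 0.05.

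Per kilobase of exon, which allows levels of different genes to be compared, the order of the medians over CD45+ libraries was Lyz2 (16912 normalized CPM per kb), Cd68 (1641.5), Cd14 (1434), Adgre1 (317), Fcgr1 (153), Sirpa (73.2) and Mertk (17.1). Cd68 was above Cd14 in 9 of the 12 libraries, and their ranges overlapped, so these neighbours did not differ beyond their spread. Every other neighbour held its place within each of the 12 libraries. The ranges of Adgre1 and Fcgr1, and of Fcgr1 and Sirpa, overlapped only through wild type CD45 single positive replicate 2, without which the lowest Adgre1 value (220.9) was above the highest of Fcgr1 (173) and the lowest of Fcgr1 (130.2) above the highest of Sirpa (100.4).

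The CD45- values of the 7 genes moved with those of leukocyte genes in general. Over the 10 CD45- libraries, the correlation of log2 normalized CPM with the summed pan-leukocyte genes was between 0.948 and 0.983 for 6 genes and 0.862 for Sirpa, as a description of libraries that share this leukocyte signal. The sum was 196, 1081 and 7102 normalized CPM in double negative and 224 and 1947 in TdTOSX single positive libraries of wild type mice, and 363, 380 and 472 and then 4861 and 2207 in those labelled Cdh2-cKO. The libraries with the highest leukocyte sums were those with the highest levels of the 7 genes. To give the genes relative to this signal, the fit was repeated with library sizes replaced by the counts of the 7 pan-leukocyte genes, an alternative added after the values were seen. This scaling moved the median of all genes to a log2 fold change of -4.19, with 93% of the genes called, 69 of them higher in CD45+ cells. On that scale 5 genes did not pass the test, at log2 fold changes between 0.12 (Cd68) and 0.63 (Cd14) and adjusted p between 0.181 and 0.795, and Mertk and Sirpa were lower in CD45+ cells, by -1.22 (SE 0.433, adjusted p = 0.00793) and -1.04 (SE 0.435, adjusted p = 0.0232). All 7 log2 fold changes were above the median of all genes on this scale too. Since the scaling changes every gene of a library by the same factor, this is no separate result.

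**Figure D2:**
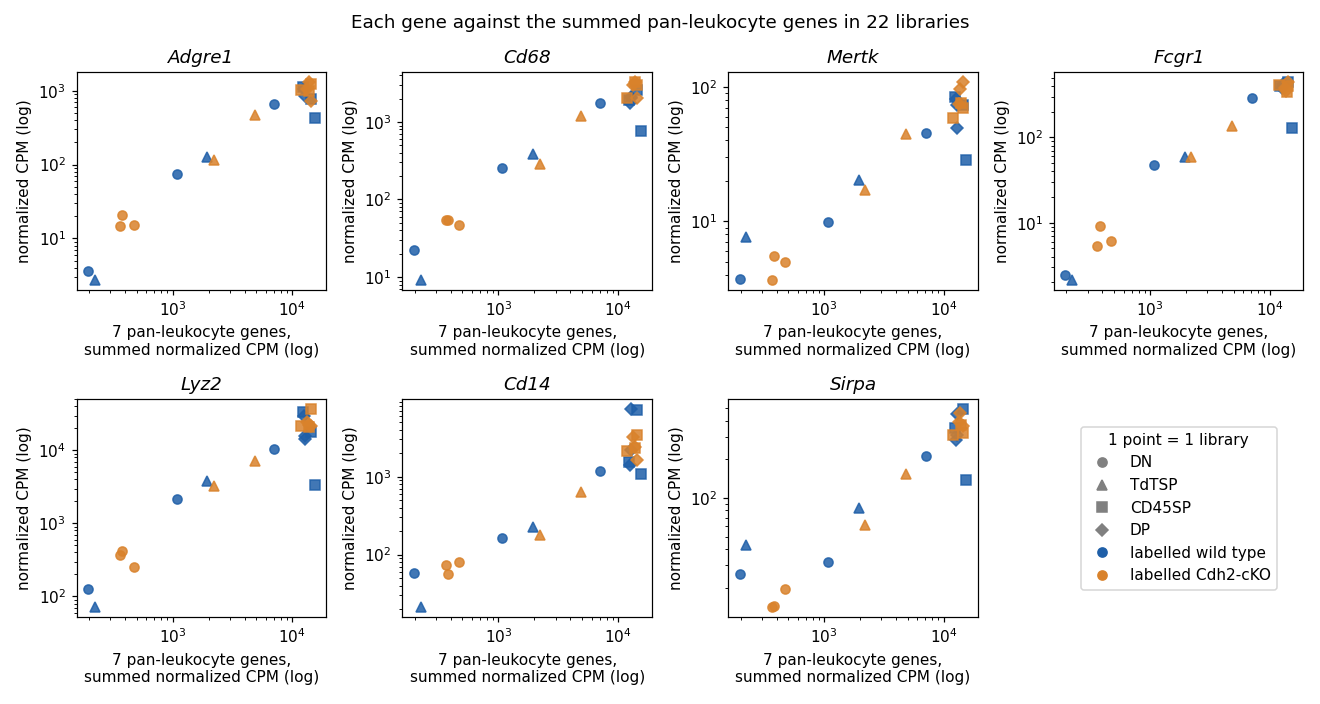
Normalized CPM of each of the 7 genes against the summed normalized CPM of 7 pan-leukocyte genes in each of 22 libraries (both axes log), with symbols for the population and colors for the genotype label. Most libraries follow a rising line, with wild type CD45 single positive replicate 2 the lowest of the CD45+ libraries in each panel, and wild type TdTOSX single positive replicate 1 (leukocyte sum 224) above the double negative libraries labelled Cdh2-cKO for Mertk and Sirpa.

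Counted per read of Ptprc, Mertk and Sirpa were higher in many CD45- than in CD45+ libraries. Mertk had between 0.0156 and 0.203 reads per Ptprc read in CD45+ libraries, and 8 of the 10 CD45- libraries exceeded that maximum, up to 3.10 in wild type TdTOSX single positive replicate 1. Sirpa had between 0.0763 and 0.973 reads per Ptprc read in CD45+ libraries, exceeded by 5 of the 10 CD45- libraries, with 17.5 in the same replicate and 5.76 in wild type double negative replicate 1. Both libraries held few leukocyte reads, and fibroblast genes summed to 59707 and 32221 normalized CPM there. The part of either in these ratios was not tested. For Adgre1, Cd68 and Fcgr1, 1 CD45- library exceeded the CD45+ maximum, and for Lyz2 and Cd14 none of the 10 did. Such an excess is common, since for 93.6% of the genes tested the median CD45- library lay above every CD45+ library on this ratio, and for 55.8% every CD45- library did.

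The second question is whether the TdTOSX+ leukocytes differ from the TdTOSX- leukocytes in these genes. Between double positive and CD45 single positive cells, 0 of the 7 genes were called by edgeR, with log2 fold changes from -0.04 (Lyz2) to 0.29 (Mertk), unadjusted p of 0.524 or more, and a median of 0.14, where that of all genes was -0.06. Only 0.00666% of the genes tested, 1 gene, was called, and 609 had an unadjusted p under 0.05. Because the CD45- libraries widen the shared estimate of the spread, the 12 CD45+ libraries were also fitted alone, an alternative added after the values were seen. The 95% interval of the difference then ran from -0.25 to 0.85 for Mertk, from -0.37 to 0.67 for Adgre1, from -0.51 to 0.70 for Cd68, from -0.39 to 0.74 for Fcgr1 and from -0.39 to 0.77 for Sirpa. It was wider for Lyz2, from -0.99 to 0.95, and for Cd14, from -1.09 to 1.13. Without wild type CD45 single positive replicate 2 the interval for Fcgr1 ran from -0.26 to 0.22 around a difference of -0.02. In the fit of 12 libraries, a 2-fold difference in either direction (a log2 fold change of 1) is outside the interval for 6 genes, narrowly for Lyz2. For Cd14 it is inside the interval. The fit of all 22 libraries was less precise, with an SE between 0.433 (Sirpa) and 0.791 (Adgre1). Within wild type and within libraries labelled Cdh2-cKO 0 of the 7 genes were called by edgeR, at unadjusted p of 0.764 or more and of 0.483 or more, as were 0 of all genes tested, with 668 and 723 at an unadjusted p under 0.05.

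**Figure D3:**
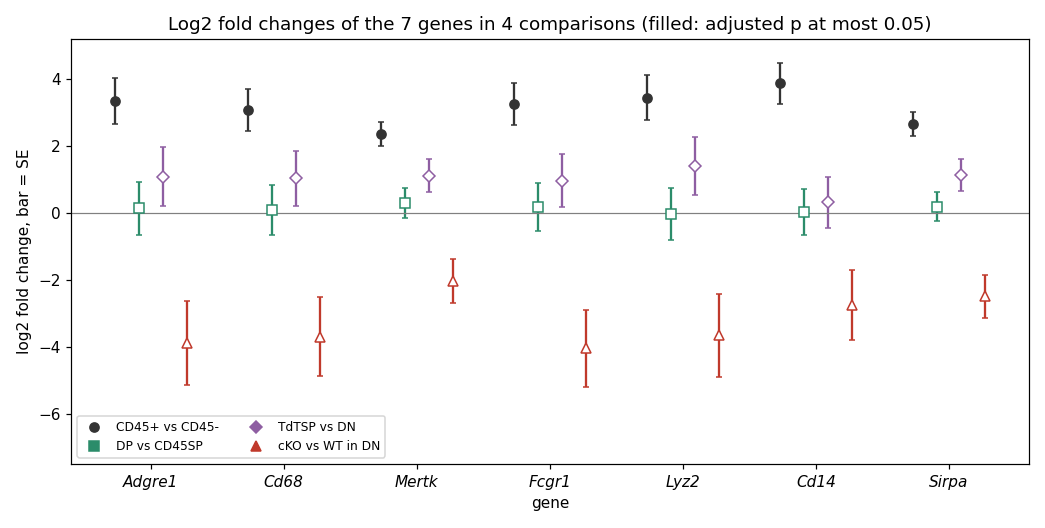
Log2 fold changes of the 7 genes in 4 comparisons, with bars for the SE and filled symbols for an adjusted p of at most 0.05 (edgeR). The 7 filled symbols are those of CD45+ against CD45- cells, between 2.35 and 3.87, while double positive against CD45 single positive cells lie between -0.04 and 0.29.

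Among CD45- cells, TdTOSX single positive libraries were compared with double negative ones. None of the 7 genes was called by edgeR, at log2 fold changes from 0.32 (Cd14) to 1.40 (Lyz2) with a median of 1.08, and 1.89% of all genes tested were called. Mertk, at 1.11 (SE 0.495, unadjusted p = 0.0387, adjusted p = 0.236), and Sirpa, at 1.13 (SE 0.479, unadjusted p = 0.0308, adjusted p = 0.213), had the smallest p-values. Both were called without wild type double negative replicate 3, at 1.87 (adjusted p = 0.0153) and 1.95 (adjusted p = 0.00686), where 5.85% of genes were called, and Sirpa also in limma's voomWithQualityWeights on all libraries, at 1.68 (adjusted p = 0.0249), where 4.78% were. The direction of the other 5 genes changed without wild type TdTOSX single positive replicate 2, to log2 fold changes between -1.20 and -0.95. For Cd14 it changed in 2 of the 23 fits that left out libraries, and for Adgre1, Cd68, Fcgr1 and Lyz2 in 1. The 7 pan-leukocyte genes had a median log2 fold change of 0.92 in this comparison, with none called by edgeR, and the 7 fibroblast genes one of 1.16, also with none called. Their part in the result was not tested.

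Between the genotypes the largest differences were in double negative cells. All 7 genes had lower fitted means in the libraries labelled Cdh2-cKO, at log2 fold changes from -2.05 (Mertk) to -4.04 (Fcgr1), but 0 of the 7 were called by edgeR, with unadjusted p between 0.00126 and 0.0168 and adjusted p between 0.18 and 0.302. No gene of the 15018 was called in this comparison by edgeR, and 1441 had an unadjusted p under 0.05. The wild type libraries spread widely here. Replicate 1 was below the libraries labelled Cdh2-cKO for Adgre1, Cd68, Fcgr1 and Lyz2 and within their range for Mertk and Cd14. Replicates 2 and 3 were above those libraries. The wild type values of Sirpa were 25.7, 31.5 and 213, and those of the libraries labelled Cdh2-cKO 14.1, 14.3 and 19.4. How many of all genes tested separated these libraries was not counted. DESeq2 called 6 of the 7 genes (all but Cd14) at adjusted p between 0.0048 and 0.0493, with 522 genes (3.48%) called in all, and edgeR called the same 6 without wild type double negative replicate 1, at adjusted p between 0.0152 and 0.0364, with 604 genes (4.04%) called. Leaving out libraries also shrank the differences, at the least to -1.19 (Adgre1), -1.37 (Cd68), -1.84 (Fcgr1) and -1.74 (Lyz2). For Mertk, Cd14 and Sirpa the smallest were -0.50, -0.67 and -0.82. The pan-leukocyte genes moved alongside, with a median log2 fold change of -3.35 and none of 7 called by edgeR, and their part in the result was not tested. Since Cdh2 ran against the label, the direction is that of the labels only.

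In TdTOSX single positive cells the fitted differences had the opposite sign, from 0.76 (Sirpa) to 2.16 (Adgre1) with unadjusted p of 0.149 or more, and 0 of the 7 genes were called by edgeR, as was 0.00666% of all genes. In double positive cells the differences lay between -0.60 (Cd14) and 0.50 (Cd68), and in CD45 single positive cells between -0.31 (Cd14) and 0.66 (Cd68), with 0 of the 7 genes and 0 of all genes called by edgeR, and 515 and 1474 genes at an unadjusted p under 0.05. In the 12 CD45+ libraries alone, the 95% interval for Adgre1 was from -0.69 to 0.78 in double positive and from -0.25 to 1.23 in CD45 single positive cells, and for Cd14 from -2.19 to 0.96 and from -1.88 to 1.26. The difference of the double positive effect between the genotypes was not called for any of the 7 genes in edgeR (unadjusted p of 0.72 or more), nor for any other gene, with 655 at an unadjusted p under 0.05.

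Most genes of a wider macrophage list, which included partners of the 7 described below, followed the 7 in the CD45 comparison. Of its 30 genes, 29 were tested (Marco was too low), and 24 rose and 3 fell in CD45+ cells. Their median log2 fold change was 3.02, where 32.6% of all genes were called higher and 31.1% lower. The rise was not particular to macrophage genes. Lists of neutrophil, dendritic, T, B and NK cell genes had medians between 3.05 (neutrophil) and 4.11 (B cell), and the pan-leukocyte genes 3.44. Of the 3 B cell genes tested 2 were called higher, and of the 6 dendritic genes 4 were called higher and 1 lower. The B cell genes summed to 3474 normalized CPM in wild type CD45 single positive replicate 2, against 8.56 to 21.7 in the other 11 CD45+ libraries. The part of that library in these medians was not tested. On the leukocyte scale 1 of the 29 was called higher and 10 were called lower, where 93% of all genes tested were called, 69 genes of them higher. The largest changes were those of Ccr2, the monocyte chemokine receptor, at 4.01 (SE 0.659, adjusted p = 4.84e-05), Lyz1 at 3.71 (SE 0.705, adjusted p = 0.000193) and Tyro3 at -3.55 (SE 0.563, adjusted p = 3.43e-05). Tyro3 was close to the 3-count level in CD45+ libraries. The receptor of macrophage colony-stimulating factor, Csf1r, rose by 3.10 (adjusted p = 3.34e-05). Of the factor genes whose motifs were searched, Spi1 rose by 3.37, Cebpa by 2.28 and Cebpb by 1.62 (adjusted p = 0.000134, 6.19e-06 and 3.47e-05). None of the 29 genes was called between double positive and CD45 single positive cells by edgeR, where 0.00666% of all genes tested were. Of all comparisons within the CD45- cells 1 of the 29 was called, Cd47, 0.82 higher in TdTOSX single positive than in double negative cells (adjusted p = 0.0468). In that comparison 1.89% of all genes tested were called.

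Partners of the 7 genes did not all follow them. The Fc receptor family rose as a whole, with Fcgr2b, the inhibitory receptor, at 2.75, Fcgr3 at 3.27, Fcgr4 at 3.02 and Fcer1g, the signaling chain that Fcgr1 needs, at 3.32 (adjusted p between 9.61e-05 and 0.000343). The TAM system was divided. While Mertk rose, except on the leukocyte scale, its relatives Axl (-0.60, adjusted p = 0.0168) and Tyro3 fell, as did the ligand Pros1, at -2.06 (adjusted p = 4.96e-07), and the ligand Gas6 was at 0.70 and did not pass the test (adjusted p = 0.0689). Within the libraries labelled Cdh2-cKO Gas6 rose, by 1.70 (adjusted p = 0.00675), and in wild type it was at -0.30 (adjusted p = 0.603). The difference between the genotypes, 2.00 (SE 0.649), did not pass the test (unadjusted p = 0.00659, adjusted p = 0.563). Pros1 lay between 96.9 and 386 normalized CPM in CD45- libraries and at no more than 67.0 in CD45+ libraries. Tyro3 was low, between 1.16 and 3.11 in CD45- and between 0 and 0.601 in CD45+ libraries, where 3 counts were worth 0.103 to 0.201. The share of all genes with every CD45- library above every CD45+ library was not counted. In the lipopolysaccharide complex, Tlr4 rose by 2.50 (adjusted p = 1.78e-06) and Ly96 by 0.68 (adjusted p = 0.000801). Cd47, the ligand of Sirpa, did not pass the test, with levels between 144 and 321 in CD45+ and between 82.0 and 235 in CD45- libraries, with a log2 fold change of 0.29 (adjusted p = 0.0716).

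Among the 12 CD45+ libraries the 7 genes varied together mainly through 1 library. Pairwise Pearson correlations of log2 CPM lay between 0.18 and 0.85 with a median of 0.71 over the 21 pairs, and between -0.70 and 0.69 with a median of 0.03 without wild type CD45 single positive replicate 2, where 9 pairs were negative. The pair of Cd14 and Sirpa changed little (0.70 and 0.69). These are descriptions over libraries that share their preparation.

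**Figure D4:**
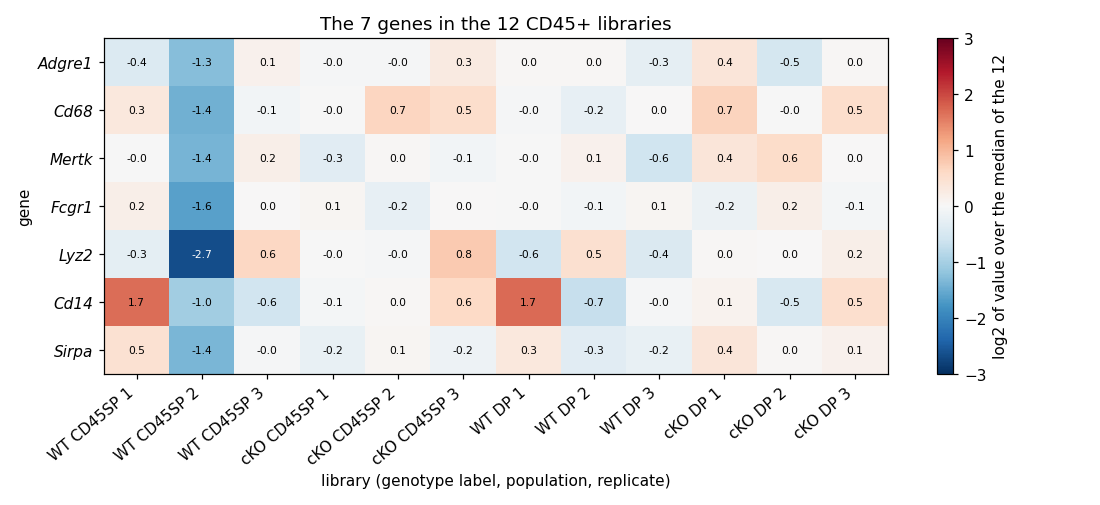
Log2 ratio of the level of each gene to its median over the 12 CD45+ libraries, 1 column per library (genotype label, population and replicate). Wild type CD45 single positive replicate 2 is low for all 7 genes, at 15.8% of the median for Lyz2, and Cd14 is high in replicate 1 of both wild type populations, at 327% and 319% of its median.

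The genes whose profile over the 12 CD45+ libraries was most like the mean of the 7, among 7906 genes with at least 10 normalized CPM, were Akr1a1, Olfml3, Atp6v0b, Znhit1, Trem2, Fcrls, Dpep2, Plpp5, 9530068E07Rik and App, with Pearson correlations between 0.96 and 0.98 that fell to between 0.65 and 0.84 without wild type CD45 single positive replicate 2. Trem2 encodes a receptor of macrophages and microglia for lipids, and Atp6v0b a subunit of the proton pump that acidifies lysosomes. For Cd14 the same ranking, added after its values were seen, gave Ybx3, Pwwp2b, Adora2b, Ndel1, St6galnac6, Tnfsf9, Nlrp3, Cdkn1a, Nfe2l2 and Ier3, with correlations between 0.86 and 0.93, and between 0.82 and 0.92 without that library.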

How the data were processed

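RNA of 22 libraries of sorted tumor stromal cells was sequenced as single-end 50-base reads from SMARTer-amplified cDNA. The submitters' processing notes name STAR 2.0.4b, GRCm38 and featureCounts 1.45. The deposited counts are unnormalized reads per Ensembl gene. The CPM and RPKM values deposited beside them were only checked against the counts. The labels gave each library its group and replicate number. The 7 genes and all lists were chosen with earlier results of these data known.

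A gene was tested if it exceeded 1 CPM in 2 or more libraries and was not among 355 rRNA genes, which left 15018 of 41388. Library sizes were scaled with TMM factors, and edgeR 4.0.16 (R 4.3.3) fitted a quasi-likelihood model with 8 group means to all 22 libraries. P-values were Benjamini-Hochberg adjusted over all genes tested, and genes were called at an adjusted p of at most 0.05. The functions were tested on simulated data. Intervals and the 3-count floor cover counting and replicate error only, since reads carry no molecular identifiers. No pair of libraries held identical values.

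The genes named were the 7, their family members and partners, Csf1r, Ptprc, and the 3 listed macrophage genes with the largest changes among those called in a comparison. Spi1, Cebpa, Cebpb and Marco were named afterwards. Alternatives were limma's voomWithQualityWeights (3.58.1), DESeq2 1.42.0, RLE factors, library totals, no count filter, robust dispersions, a replicate block, wild type libraries alone, leaving out each library, leaving out wild type CD45 single positive replicate 2 with double negative replicate 3, and calls restricted to absolute log2 fold changes from 2 upwards. Fits of CD45+ or CD45- libraries alone and the leukocyte scaling were added after seeing the data.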

Additional observations from a re-analysis of the deposited data

Results flagged for a closer look

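Each of the 7 genes was examined in each population over both genotypes, on the log2 scale, for a library far from the others (Dixon's test, 28 groups of 4 or 6 libraries, of which chance alone would mark about 1 in 20). In 7 groups a library was past the critical value, and all 7 are from the same pair of libraries. Wild type CD45 single positive replicate 2 was the lowest of its 6 libraries for Cd68 (764 normalized CPM), Fcgr1 (128), Lyz2 (3377), Mertk (28.5) and Sirpa (139). Wild type double negative replicate 3 was the highest of its 6 libraries for Cd14 (1191) and Sirpa (213). In the former library the B cell genes summed to 3474 and the T cell genes to 2606 normalized CPM, and in the latter the pan-leukocyte genes to 7102, and their part in these values was not tested. The high Cd14 levels in replicate 1 of both wild type CD45+ populations were not past the critical value.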

How the results depend on the processing

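The number of the 7 genes called was within 1.5 times the reported one in 407 combinations of a comparison and an alternative setting and further away in 8. A 0 against a 0 was counted as within. Only CD45+ against CD45- cells, over both genotypes or within each, had any of the 7 genes called in the reported fit. In the reported fit 32.6% of all genes tested were called higher in CD45+ over CD45- cells, and the shares under most alternatives are not given here. The rise in CD45+ over CD45- cells was called for 7 of 7 genes under every alternative but the leukocyte scaling, which called 2, Mertk (-1.22) and Sirpa (-1.04), both lower. On that scale 93% of all genes tested were called. Within wild type mice, 3 genes were called in the 11 wild type libraries alone and between 3 and 7 on leaving out a library, fewest without TdTOSX single positive replicate 1. Between TdTOSX single positive and double negative cells, voomWithQualityWeights called 1 gene and leaving out libraries between 0 and 2. Between genotypes in double negative cells, DESeq2 called 6 and leaving out a library between 0 and 6. The cause of these changes was not tested, except that the smaller fits hold fewer libraries. Scaling to library totals moved the median of all genes in CD45+ over CD45- cells from 0.06 to -0.26.

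Differences between double positive and CD45 single positive cells were near 0, and their sign changed with the setting. In 11 CD45+ libraries alone the log2 fold changes were -0.0028 (Adgre1), -0.091 (Cd68), -0.021 (Fcgr1), -0.19 (Cd14) and -3.6e-05 (Sirpa), voomWithQualityWeights gave -0.019 for Cd68 and -0.29 for Cd14, and library totals 0.010 for Lyz2. On leaving out libraries they ranged from -0.0094 to 0.32 for Adgre1, -0.10 to 0.27 for Cd68, -0.026 to 0.32 for Fcgr1, -0.28 to 0.35 for Lyz2, -0.50 to 0.68 for Cd14 and -0.0051 to 0.38 for Sirpa. For TdTOSX single positive against double negative cells the ranges were -1.20 to 2.42 for Adgre1, -1.18 to 2.19 for Cd68, -0.95 to 2.06 for Fcgr1, -0.99 to 2.36 for Lyz2 and -0.96 to 1.36 for Cd14.

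Replicate numbers were not taken to pair the libraries, since the sources used here do not give the pairing. The correlations below do not decide it. In groups of 2 libraries the deviations mirror each other, so pairs with different numbers are not an independent comparison. In wild type, r was from -0.30 to 0.59 and over 0.1 in 4 of 15 same-number pairs, against 5 of 30 pairs with different numbers. In libraries labelled Cdh2-cKO it was from -0.13 to 0.17 and over 0.1 in 6 of 15, against 1 of 30, with medians of 0.054 and -0.015. With the replicate block, 7 of 7 genes were called in CD45+ over CD45- cells, also within each genotype, and 0 in the other comparisons, and the double positive difference was -0.0036 for Cd14 and -0.0076 for Cd68. The share of all genes called in CD45+ over CD45- cells with the block is not given here. Without the block 32.6% of all genes tested were called higher.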
